A study of Rattus norvegicus with 69 samples.

Results

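The 10 genes described here encode acyl-CoA synthetases, the enzymes that join a fatty acid or a related acid to coenzyme A. They are the rows of the deposited gene table with the symbols Acsf2, Acsf3, Acsl1, Acsl3, Acsl4, Acsl5, Acsm2a, Acsm3, Acsm5 and Aacs, and they make up 10 of its 38513 genes. All 10 passed the filter on low counts, which kept 16676 genes for testing. The symbols were chosen with earlier results of these data known. Acsf2 was chosen for its values in RYGB against sham livers and in liraglutide+PYY3-36 against saline livers, so its values in every comparison that uses those libraries are given as a description, with no test.

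RNA of 69 liver samples of male Wistar rats was sequenced after poly(A) selection. The labels place 14 libraries in RYGB (Roux-en-Y gastric bypass, in which a small stomach pouch is joined to the jejunum), 8 in BWM, 6 in Lean, 12 in sham operation, 11 in liraglutide+PYY3-36, 5 in PYY3-36, 5 in liraglutide and 8 in saline. Liraglutide is an analogue of the gut hormone GLP-1 and was injected under the skin, and PYY3-36 is a gut hormone fragment that was infused by an osmotic minipump. Rats on a single drug received saline by the other route, and the saline group received saline by both routes. The study's methods state that the rats of these 6 surgical and drug groups were adult, had been made obese with high-fat chow, were then randomised, could choose between high-fat and low-fat chow during treatment, and were fasted overnight before the liver was taken. They do not describe the BWM and Lean groups, which are therefore called by their labels. The labels also assign each library to batch A or batch B. RYGB has 11 and 3 libraries in batches A and B, sham 7 and 5, liraglutide+PYY3-36 6 and 5, and saline 3 and 5, whereas BWM and Lean are in batch A only and PYY3-36 and liraglutide in batch B only. The methods mention 6 liraglutide+PYY3-36 and 3 saline rats with a longer feeding period, which is the number of batch A libraries in these groups, but the labels do not say which rats they were.

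Total counts ranged between 9110860 and 27559144 per library (median 21027325). The 3 batch B RYGB libraries were shallow, with 9110860, 13941960 and 10759126 counts, and every batch B sham library had 14052862 or more. Levels are given as counts per 1000000 counts of the library (CPM) after TMM scaling, and log2 fold changes come from 1 edgeR quasi-likelihood model of all 69 libraries with terms for group and batch, with p-values adjusted over all genes tested (Benjamini and Hochberg). A gene is called, and said to rise or fall, only at an adjusted p under 0.05. On the first principal component, 6 batch B libraries lay apart from the other 22 of that batch, namely sham replicate 12, PYY3-36 replicate 5, liraglutide replicate 4 and liraglutide+PYY3-36 replicates 8, 9 and 11. All 8 hepatocyte markers examined, among them albumin (Alb) and transthyretin (Ttr), were detected in the tissue labelled liver. The samples are pieces of whole tissue, in which fewer cells of a type and less RNA per cell cannot be told apart.

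Free fatty acids are chemically inert in metabolism until a synthetase has linked them to coenzyme A. The enzymes differ in the chain length they accept and in where they sit in the cell, and both influence whether the acyl-CoA is burned in mitochondria, stored as triglyceride or conjugated for excretion. The ACSL enzymes accept long-chain fatty acids and lie on the mitochondrial outer membrane, the endoplasmic reticulum and lipid droplets. The ACSM enzymes work in the mitochondrial matrix on medium-chain fatty acids and on aromatic acids such as benzoate. ACSF2 is a mitochondrial synthetase with a preference for medium chains, ACSF3 makes malonyl-CoA inside mitochondria, and AACS activates the ketone body acetoacetate in the cytosol for lipid and sterol synthesis.

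Acsm5, Acsm2a and Acsm3 lie in one cluster on chromosome 1, and their start regions are printed because Acsm5 and Acsm2a had higher levels in RYGB livers while Acsm1, which lies between Acsm2a and Acsm3, passed no test there. The sequences are from RefSeq on the assembly GRCr8, which is not the build of the counts, and run 5′ to 3′ on the plus strand across 250 bases before and 50 bases after the annotated start. Capitals mark the hexamer AGGTCA or its reverse complement TGACCT, the half-site to which many nuclear receptors bind.
Acsm5, chr1:183302259-183302558: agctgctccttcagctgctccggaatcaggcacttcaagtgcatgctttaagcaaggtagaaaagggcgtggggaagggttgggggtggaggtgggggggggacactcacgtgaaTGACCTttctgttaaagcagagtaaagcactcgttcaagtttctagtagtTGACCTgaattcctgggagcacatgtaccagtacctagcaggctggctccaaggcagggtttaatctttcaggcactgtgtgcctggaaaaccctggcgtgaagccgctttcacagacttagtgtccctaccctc
Acsm2a, chr1:183347455-183347754: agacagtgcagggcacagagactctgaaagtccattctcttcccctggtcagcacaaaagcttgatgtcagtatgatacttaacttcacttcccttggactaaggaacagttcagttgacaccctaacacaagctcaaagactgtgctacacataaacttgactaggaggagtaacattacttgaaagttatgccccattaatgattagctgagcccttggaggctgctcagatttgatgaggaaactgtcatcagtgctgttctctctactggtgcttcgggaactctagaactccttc
Acsm3, chr1:183564402-183564701: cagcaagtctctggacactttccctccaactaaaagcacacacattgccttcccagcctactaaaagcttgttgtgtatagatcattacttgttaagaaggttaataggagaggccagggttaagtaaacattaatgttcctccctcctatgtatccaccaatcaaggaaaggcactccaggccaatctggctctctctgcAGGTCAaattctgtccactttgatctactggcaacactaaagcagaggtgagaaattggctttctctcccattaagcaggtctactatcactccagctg
Acsm5 held 2 copies, 135 and 85 bases before the start, Acsm3 held 1 copy 49 bases before it, and Acsm2a held none. A start region was found in the RefSeq table for 8 of the 10 genes by gene ID, Acsm2a being listed there under the symbol Acsm2, and the other 5 had no copy either. Of all 33469 start regions of this length, 16.2% held the hexamer on at least 1 strand and 1.81% held 2 or more. None of the 8 held a direct repeat of this hexamer with 1 base between the copies (DR1), which was in 0.0538% of all start regions. The hexamer CACGTG, the core of the E-box, was in Acsm5 among the 8 and in 6.42% of all, and it did not overlap the half-sites. CCAAT was in Acsm3, Acsl3 and Acsl1 and in 37.5% of all, and TATAAA was in Acsl5 and in 14.2% of all. These matches on both strands describe letters only, and binding was not measured.

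Per kilobase of exon, Acsl1 was the most abundant of the 10 transcripts, with 399 ± 160 CPM per kb (mean ± SD, n = 69) and 66.9% of the summed level of the 10 genes. Acsl5 followed with 14.3%, Acsm5 with 6.32%, Acsl4 with 4.89% and Acsm3 with 4.61%. The share was 1.09% for Acsm2a, 0.974% for Acsf3, 0.470% for Acsf2, 0.412% for Acsl3 and 0.0723% for Aacs. The summed level of all 10 genes was 569 ± 63.4 CPM per kb in RYGB livers (n = 14) and 587 ± 208 CPM per kb in sham livers (SD, n = 12), so that the family total, which Acsl1 dominates, differed by less than the spread.

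Acsf2 (chromosome 10, 82284719 to 82326771, minus strand, Rnor_6.0) was higher in RYGB livers than in each of the other 7 groups. It had 11.4 to 38.2 CPM in RYGB livers (median 15.2, n = 14), 4.46 to 8.95 CPM in BWM livers (median 7.58, n = 8), 6.46 to 9.69 CPM in Lean livers (median 7.30, n = 6) and 4.50 to 15.5 CPM in sham livers (median 6.06, n = 12). In the drug groups it had 4.35 to 7.12 CPM in liraglutide+PYY3-36 livers (median 5.27, n = 11) and 4.77 to 8.06 CPM in saline livers (median 5.48, n = 8). The 5 PYY3-36 livers had 4.77, 4.81, 6.79, 4.96 and 5.06 CPM, and the 5 liraglutide livers had 5.95, 7.78, 6.71, 6.68 and 4.97 CPM. All 14 RYGB livers lay above every BWM and Lean liver, and a gap in this direction was found for 0.066% of all genes tested in RYGB against BWM and for 0.15% in RYGB against Lean. Only sham replicate 12, one of the libraries apart, overlapped the RYGB range.

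In batch A the Acsf2 levels did not overlap, with 16.7 ± 3.60 CPM in RYGB livers (SD, n = 11) and 5.81 ± 1.17 CPM in sham livers (SD, n = 7). Such a gap, with RYGB higher, was found for 0.27% of all genes tested. In batch B the RYGB livers had 14.9, 38.2 and 11.4 CPM and the sham livers 5.65, 4.56, 6.52, 6.498 and 15.5 CPM. RYGB replicate 13, the liver at 38.2 CPM, and sham replicate 12 are each the highest of their group. The fitted log2 difference in Acsf2 was 1.44 (SE 0.15, 95% interval 1.14 to 1.75) for RYGB against sham, which is 2.72-fold. It was 1.28 (SE 0.17) for RYGB against BWM and 1.20 (SE 0.19) for RYGB against Lean. Acsf2 was chosen for its RYGB and sham values, so these SEs, this interval and these gaps do not allow for that choice. They are no test. Leaving out each library in turn moved the value against sham between 1.26, without RYGB replicate 13, and 1.605, without sham replicate 12.

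**Figure D1:**
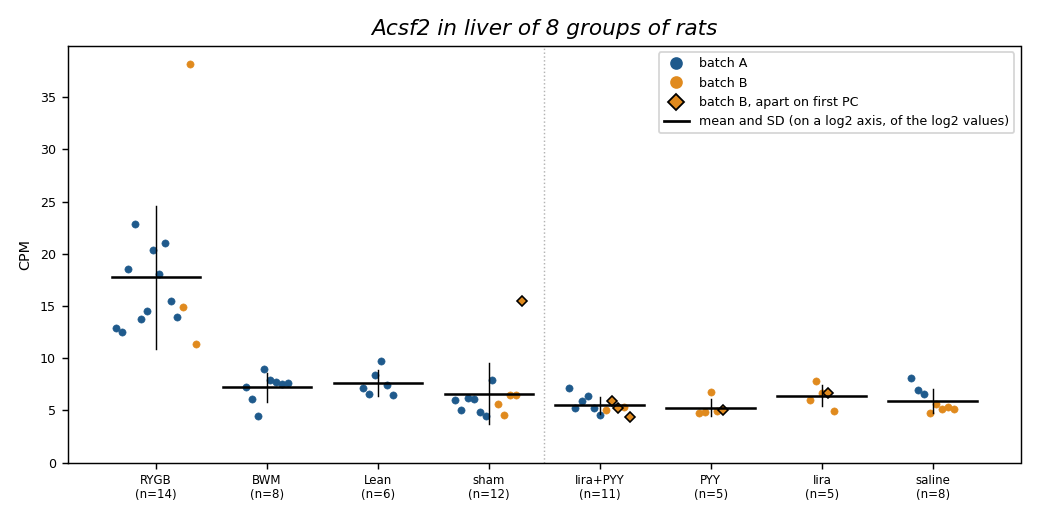
Acsf2 in CPM (y axis, linear) in each liver of the 8 groups (x axis), with bars for the mean and SD. RYGB livers run between 11.4 and 38.2 CPM, and of the other groups only sham replicate 12, drawn as a diamond at 15.5 CPM, reaches that range.

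After RYGB, the order of the mean Acsf2 level was Lean with 7.61 ± 1.24 CPM (n = 6), BWM with 7.20 ± 1.36 CPM (n = 8), sham with 6.61 ± 2.96 CPM (n = 12), liraglutide with 6.42 ± 1.04 CPM (n = 5), saline with 5.93 ± 1.14 CPM (n = 8), liraglutide+PYY3-36 with 5.48 ± 0.80 CPM (n = 11) and PYY3-36 with 5.28 ± 0.86 CPM (SD, n = 5). Each neighbouring pair in this order below RYGB differed by less than the SD of either group. The log2 difference was -0.11 (95% interval -0.45 to 0.24) for liraglutide+PYY3-36 against saline and 0.16 (95% interval -0.19 to 0.50) for sham against saline. The saline livers themselves differed by batch, with 8.06, 6.94 and 6.53 CPM in batch A and 4.77 to 5.63 CPM in batch B (n = 5). Within batches, the log2 difference for liraglutide+PYY3-36 against saline was -0.33 in batch A and 0.0037 in batch B, and for sham against saline it was -0.31 in batch A and 0.59 in batch B. The effect of RYGB minus that of liraglutide+PYY3-36 was 1.55 (SE 0.23) on the log2 scale. The intervals and the SE of these comparisons do not allow for the choice of Acsf2 either. Acsf2 was tested in the comparisons that share no library with those it was chosen from. Its log2 fold change was -0.08 for BWM against Lean (95% interval -0.48 to 0.32, adjusted p = 1) and 0.28 for liraglutide against PYY3-36 (95% interval -0.20 to 0.76, adjusted p = 0.976), and neither passed the test.

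Genes whose pattern was most like that of Acsf2 were sought among 10300 tested genes that had named symbols and averaged log2 CPM values of 1 or more. Ranked by Pearson r, the level of Igfbp2 followed that of Acsf2 most closely over the 69 libraries (r = 0.75, Spearman rho = 0.51). Igfbp2, which binds insulin-like growth factors in the circulation, averaged 81.5 CPM in RYGB livers and 1.71 CPM in sham livers. Next were Plekha4 (r = 0.73), Apcdd1, an inhibitor of Wnt signalling (r = 0.67), Plxnb1, a semaphorin receptor (r = 0.65), and Alpl, the tissue-nonspecific alkaline phosphatase (r = 0.64). By rho the order of these genes was different, with Plxnb1 (0.65), Alpl (0.58) and Plekha4 (0.57) above Igfbp2 and Apcdd1 (0.46) below it. The most opposite genes were Stac3 (r = -0.77), Hamp, which encodes the iron hormone hepcidin (r = -0.74), and Nrep (r = -0.70). Stac3 averaged 38.5 CPM in RYGB livers and 303 CPM in sham livers, and Hamp averaged 76.3 and 812 CPM in RYGB and sham livers. The RYGB livers are among these libraries and were used to choose Acsf2, so the correlations are a description. After the group and batch means had been subtracted, the closest genes were Nlrp3 (r = 0.51), Pecam1 (r = 0.48), Slc43a2 (r = 0.47), Elovl1 (r = 0.45) and Trpm4 (r = 0.45), and the most opposite were Gtf2h1 (r = -0.48), Ost4 (r = -0.47) and Dera (r = -0.43). No gene of either direction appeared in both lists.

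The comparison of RYGB with sham operation asked what the bypass changed beyond surgery itself. Of the 9 members other than Acsf2, 3 rose and none fell, and 3.12% of all genes tested were called in this comparison (1.54% higher). The 3 were the medium-chain synthetases Acsm2a and Acsm5 and the acetoacetyl-CoA synthetase Aacs. At an unadjusted p under 0.05 there were 5 of 9, against 12.7% of all genes tested.

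Acsm2a (chromosome 1, 189289957 to 189329007, plus strand, Rnor_6.0) encodes a matrix enzyme that activates benzoate and medium-chain acids ahead of glycine conjugation. Its level was 13.4 to 99.9 CPM in RYGB livers (median 28.1, n = 14) and 2.40 to 38.3 CPM in sham livers (median 7.24, n = 12). The ranges overlap, with sham replicate 9 at 38.3 CPM and every other sham liver at 15.3 CPM or less. The rise was 2.04 on the log2 scale (SE 0.42), or 4.11-fold (adjusted p = 0.00109). In batch A the means were 41.2 ± 30.1 CPM in RYGB livers (n = 11) and 7.43 ± 4.68 CPM in sham livers (SD, n = 7), and 9 of 11 RYGB livers exceeded every sham liver of that batch (log2 fold change 2.46, adjusted p = 0.00238).

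Acsm5 (189240955 to 189270422 on the same strand of chromosome 1), a medium-chain synthetase, had 123 to 499 CPM in RYGB livers (median 270.0, n = 14) and 32.1 to 302 CPM in sham livers (median 69.8, n = 12). The log2 fold change was 1.70 (SE 0.41), or 3.24-fold (adjusted p = 0.00684). In batch A the value was 1.87 (adjusted p = 0.0142), and 10 of 11 RYGB livers exceeded every sham liver. In batch B all 3 RYGB livers, with 447, 499 and 303 CPM, lay above the 5 sham livers, which had 56.9, 302, 171, 152 and 32.1 CPM, so the lowest RYGB liver and the highest sham liver nearly met. A complete gap with RYGB higher was found for 1.92% of all genes tested in batch B. Within batch B alone neither Acsm2a (1.58, adjusted p = 0.612) nor Acsm5 (1.56, adjusted p = 0.739) passed the test, with 3 RYGB and 5 sham livers.

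Reads of Acsm5 and Acsm2a were partly shared with other loci. Their counts were not whole numbers in 43 and 48 of the 69 libraries, because a read matching several places was divided among them, and how much each gene owes to such reads was not resolved. Acsm3 was whole in all libraries but 1. Counts were also not whole in 29 libraries for Acsl5, 20 for Acsl1, 15 for Acsl3 and 11 for Acsf3. For Acsf2, Acsl4 and Aacs this held in 5, 3 and 1 libraries.

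Other genes of the same interval gave other values in RYGB against sham. From the start of Acsm5 to the end of Acsm3 the build Rnor_6.0 holds 10 gene starts over 300.3 kb, of which 9 genes were tested. Acsm1, another medium-chain synthetase of the same cluster, averaged 331 ± 112 CPM in RYGB livers (n = 14) and 315 ± 94.6 CPM in sham livers (SD, n = 12), with a log2 fold change of -0.11 (SE 0.14, adjusted p = 0.847). RGD1559600 (0.13, adjusted p = 0.871), LOC102551259 (-0.16, adjusted p = 0.907), Thumpd1 (-0.16, adjusted p = 0.775) and Eri2 (-0.19, adjusted p = 0.834) did not pass the test either, nor did LOC102551569. Acsm4 of the same cluster had too few counts to be tested. Against Lean livers, LOC102551259, a non-coding gene within the span of Acsm1, did pass the test. It was higher in RYGB than in Lean livers (2.12, adjusted p = 0.000234) and lower in Lean than in sham livers (-2.28, adjusted p = 0.00121).

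Acsm3 (189514504 to 189541233, plus strand), the medium-chain synthetase at the other end of the cluster, varied widely within groups. It had 18.03 to 248 CPM in RYGB livers (median 107, n = 14) and 9.55 to 134 CPM in sham livers (median 42.7, n = 12). Its log2 fold change of 0.96 (SE 0.40, 95% interval 0.17 to 1.76) did not pass the test (adjusted p = 0.238). Without the 6 libraries apart, of which sham replicate 12 stood near the top of its group at 133 CPM, the value was 1.23 (adjusted p = 0.028). Limma-voom over all libraries, which here weighted each library by its estimated quality, gave 1.19 (adjusted p = 0.0477).

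Aacs (chromosome 12, 36512393 to 36555694, minus strand, Rnor_6.0) was the scarcest of the 10 transcripts, with 2 to 146 counts per library. It had 0.525 to 10.2 CPM in RYGB livers (median 1.18, n = 14) and 0.146 to 1.52 CPM in sham livers (median 0.645, n = 12). The log2 fold change was 1.33 (SE 0.34), or 2.52-fold (adjusted p = 0.0142). This call depended on RYGB replicate 13, the liver at 10.2 CPM and the one with the highest Acsf2, since without it the value was 0.79 (adjusted p = 0.219). In batch A alone the value was 0.77 (adjusted p = 0.139).

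**Figure D2:**
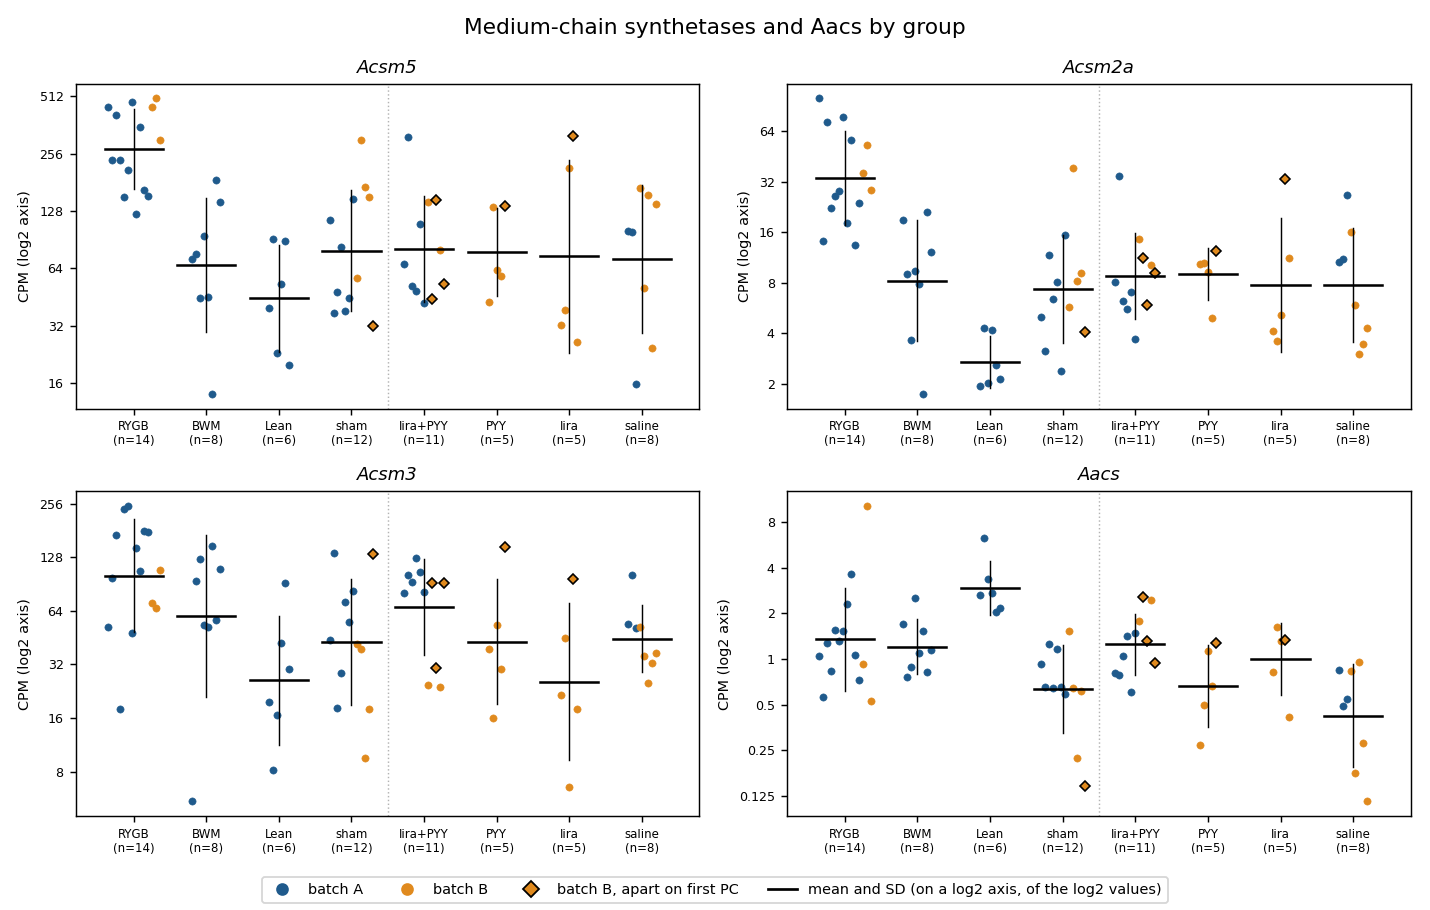
Acsm5, Acsm2a, Acsm3 and Aacs in CPM (y axes, log2) in each liver of the 8 groups (x axes), with bars for the mean and SD of the log2 values. RYGB livers lie highest on average in Acsm5 (123 to 499 CPM) and Acsm2a (13.4 to 99.9 CPM), Lean livers have the lowest mean in Acsm2a (1.96 to 4.30 CPM) and the highest in Aacs, and 1 RYGB liver reaches 10.2 CPM in Aacs.

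The long-chain synthetases did not pass the test in RYGB against sham with edgeR over all 69 libraries. In Rnor_6.0 they lie on chromosome 16, 48937456 to 49003898 (Acsl1, minus strand), chromosome 9, 84569601 to 84593565 (Acsl3, plus strand), chromosome X, 113596247 to 113660024 (Acsl4, minus strand), and chromosome 1, 276240703 to 276290012 (Acsl5, plus strand). Acsl1, the main long-chain synthetase of liver, had 880 to 2060 CPM in RYGB livers (median 1491, n = 14) and 1356 to 5047 CPM in sham livers (median 1788, n = 12). Its log2 fold change was -0.39 (SE 0.17, 95% interval -0.73 to -0.05, adjusted p = 0.284), while limma-voom over all libraries called it (-0.34, adjusted p = 0.0229). In batch A alone it was -0.45 (SE 0.11, adjusted p = 0.0089). In batch A, 8 of 11 RYGB livers lay below every sham liver. Acsl3, which feeds lipid droplet formation, had a value of 0.23 (95% interval -0.32 to 0.78). Acsl4, which prefers arachidonic acid, had 0.05 (95% interval -0.31 to 0.42), and Acsl5, found on mitochondria and the endoplasmic reticulum, had -0.04 (95% interval -0.46 to 0.38). Acsf3, the malonyl-CoA synthetase (chromosome 19, 55594801 to 55635312, plus strand), was the most even of the 10 genes, with a 2.201-fold range over all 69 libraries and a value of -0.07 (95% interval -0.29 to 0.14).

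**Figure D3:**
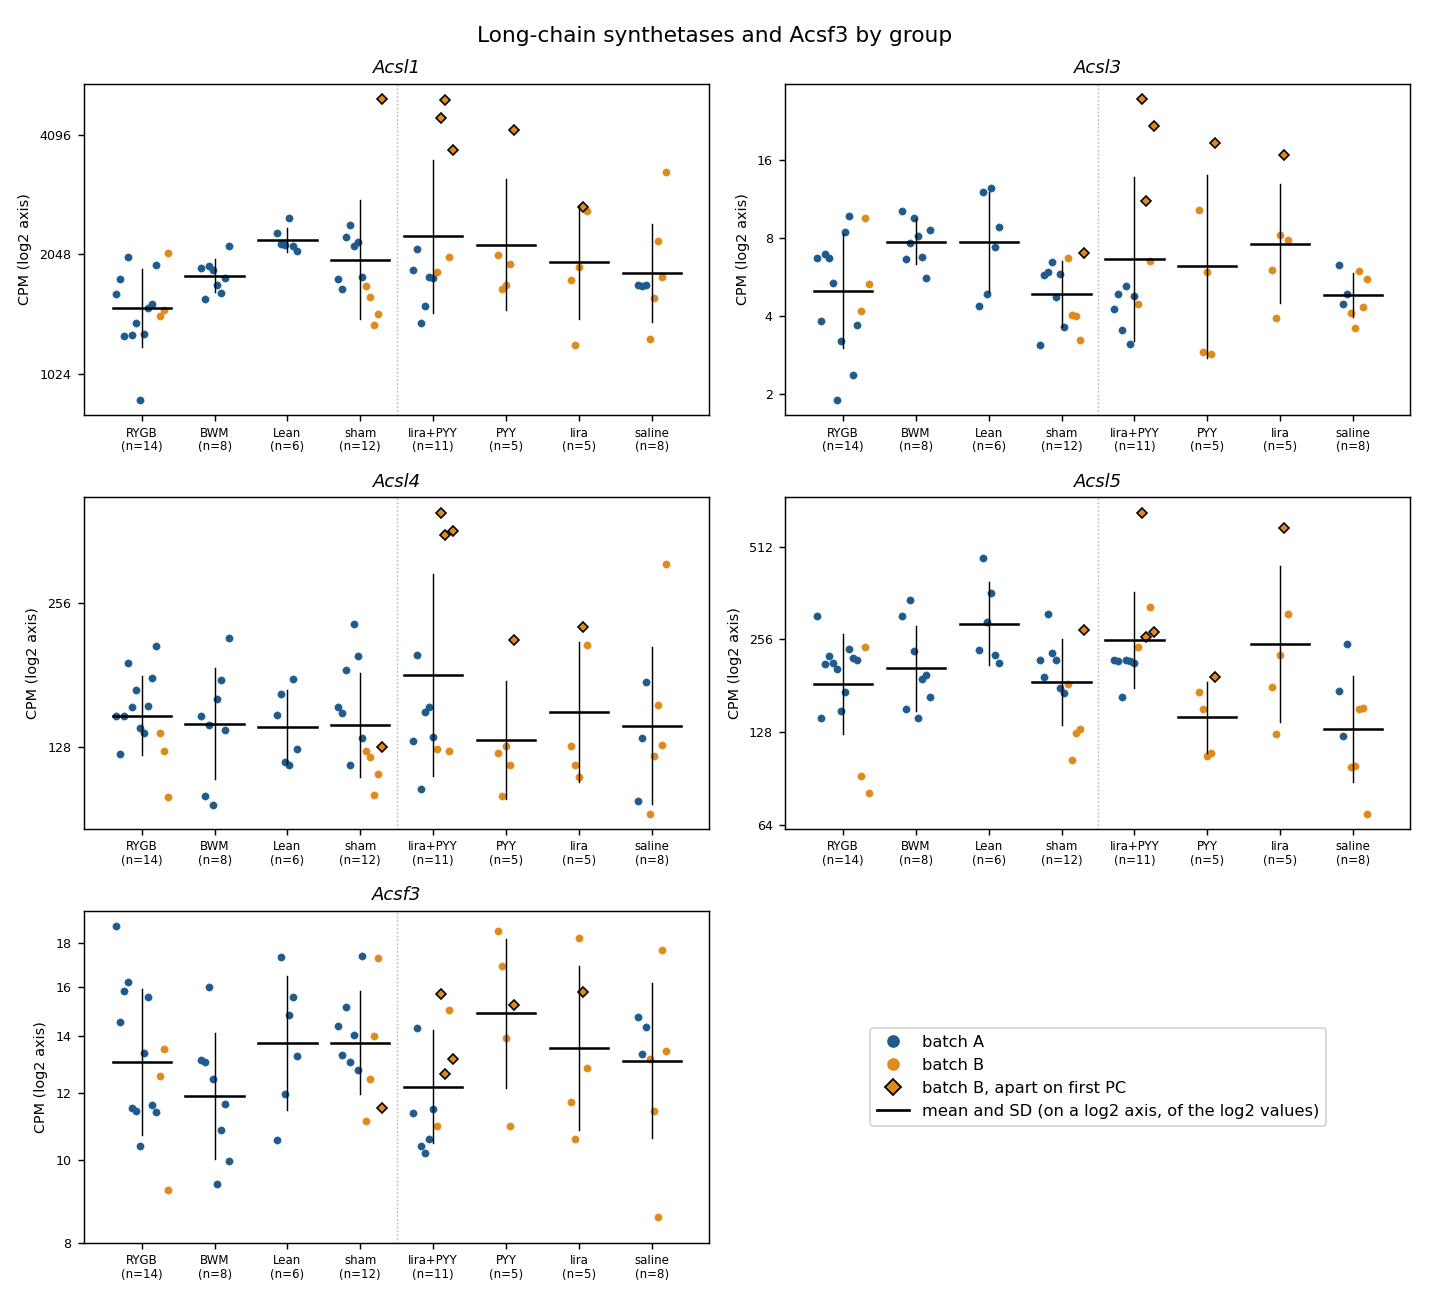
Acsl1, Acsl3, Acsl4, Acsl5 and Acsf3 in CPM (y axes, log2) in each liver of the 8 groups (x axes), with bars for the mean and SD of the log2 values. The 6 diamonds, the libraries apart, mostly stand high in Acsl1 (2700 to 5047 CPM) and in Acsl3 (7.004 to 27.5 CPM), and in Acsf3 they do not (11.5 to 15.8 CPM).

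Against BWM, 2 of the 9 members rose in RYGB livers and none fell, with 1.27% of all genes tested called (0.768% higher). Acsm2a had 13.4 to 99.9 CPM in RYGB livers (n = 14) and 1.75 to 21.04 CPM in BWM livers (n = 8), and 11 of 14 RYGB livers exceeded every BWM liver. Its log2 fold change was 1.97 (SE 0.47, adjusted p = 0.0131). Acsm5 had 123 to 499 CPM in RYGB livers and 14.05 to 187 CPM in BWM livers, with a log2 fold change of 1.70 (SE 0.47, adjusted p = 0.0468). That call was close to the threshold. It was lost (adjusted p between 0.0505 and 0.119) on leaving out any 1 of BWM replicates 1 to 6 or of RYGB replicates 1, 3, 4, 6, 7, 9, 12 and 13, with log2 fold changes that stayed between 1.54 and 1.73. BWM is in batch A only, so its difference from a group that spans both batches rests in part on the batch term. In batch A alone, both genes were called. Acsl3 was called lower by limma-voom (-0.67, adjusted p = 0.0322) and not by edgeR or DESeq2.

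Against Lean, the 3 Acsm members rose and none of the 9 fell, with 3.88% of all genes tested called (1.6% higher). Acsm2a had 1.96 to 4.30 CPM in the 6 Lean livers, and its log2 fold change was 3.84 (SE 0.60), or 14.3-fold (adjusted p = 9.64e-06). Acsm5 had 19.8 to 91.0 CPM in Lean livers and a log2 fold change of 2.38 (SE 0.55, adjusted p = 0.00368). For both genes, all 14 RYGB livers lay above all 6 Lean livers, a gap in this direction found for 0.15% of all genes tested. Acsm3 had 8.13 to 91.3 CPM in Lean livers and a log2 fold change of 1.95 (SE 0.53, adjusted p = 0.0196), and this call was lost without Lean replicate 1, 2 or 3 (adjusted p = 0.0697, 0.0762 and 0.0695).

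Acsl1 went the other way. All 14 RYGB livers, at up to 2060 CPM, lay below all 6 Lean livers, at 2081 to 2527 CPM, a gap in this direction found for 0.228% of all genes tested. The log2 fold change of -0.63 (SE 0.21) did not pass the test with all 69 libraries (adjusted p = 0.0761). It did with limma-voom, with -0.57 (adjusted p = 0.000939), in batch A alone, with -0.57 (adjusted p = 0.000684), and without the 6 libraries apart, with -0.53 (adjusted p = 0.0124). Aacs was not called (-0.90, adjusted p = 0.261), but without RYGB replicate 13 it fell (-1.24, adjusted p = 0.0182), as it did in batch A alone (-1.14, adjusted p = 0.00748) and with limma-voom (-1.23, adjusted p = 0.00107). Limma-voom also called Acsl3 lower (-0.77, adjusted p = 0.0183).

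Lean against sham had 1 call among the 9 members, with 0.612% of all genes tested called (0.48% higher). Aacs had 2.63, 6.28, 3.36, 2.71, 2.03 and 2.15 CPM in Lean livers and at most 1.52 CPM in the 12 sham livers, so the groups did not overlap, a gap in this direction found for 0.078% of all genes tested. The log2 fold change was 2.23 (SE 0.41), or 4.70-fold (adjusted p = 0.00114). Acsm2a had its lowest group mean in Lean livers, 2.87 ± 1.09 CPM (SD, n = 6), but its log2 fold change of -1.80 (SE 0.57) did not pass the test against sham (adjusted p = 0.205). DESeq2 on the same libraries called it (-1.82, adjusted p = 0.0363).

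None of the 9 members was called in BWM against sham, where 0.042% of all genes tested were called, and 2 of 9 had an unadjusted p under 0.05, against 3.18% of all genes tested. These were Acsl3 (0.84, SE 0.32) and Aacs (0.95, SE 0.40), each with an adjusted p of 1. None of the 10 members was called in BWM against Lean, where 0.528% of all genes tested were called, although 3 of 10 had an unadjusted p under 0.05, against 6.95% of all genes tested. These were Acsm2a (1.87, adjusted p = 0.157), Acsm3 (1.22, adjusted p = 0.598) and Aacs (-1.28, adjusted p = 0.259). DESeq2 and limma-voom also had 0 calls for BWM against sham. For BWM against Lean DESeq2 called Acsm2a (1.87, adjusted p = 0.041) while limma-voom called Aacs (-1.28, adjusted p = 0.004).

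The drug comparisons asked what liraglutide, PYY3-36 or both changed against saline. In liraglutide+PYY3-36 livers none of the 9 members was called, with 0.006% of all genes tested called. DESeq2 and limma-voom also called 0 of the 9. At an unadjusted p under 0.05 there were 4 of 9, against 10.9% of all genes tested. Acsl5 had the lowest p. It had 166 to 662 CPM in liraglutide+PYY3-36 livers (median 220, n = 11) and 69.4 to 248 CPM in saline livers (median 138, n = 8), and 4 of 11 treated livers exceeded every saline liver. Its log2 fold change was 0.99 (SE 0.25, 95% interval 0.49 to 1.49, unadjusted p = 0.0002 and adjusted p = 0.371 in edgeR). The other 3 were Aacs (1.36, SE 0.43), Acsl3 (0.78, SE 0.33) and Acsl1 (0.41, SE 0.20), each with an adjusted p of 0.454. The highest livers in Acsl1 and Acsl3 were libraries apart, with 4523, 5008 and 3750.0 CPM of Acsl1 in liraglutide+PYY3-36 replicates 8, 9 and 11.

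Without the 6 libraries apart, the log2 fold change for liraglutide+PYY3-36 against saline was 0.61 (adjusted p = 0.914) for Acsl5, -0.09 (adjusted p = 0.984) for Acsl1, -0.08 (adjusted p = 0.997) for Acsl3 and 1.38 (adjusted p = 0.855) for Aacs, and none was called. The batches also differed. In batch A, Acsl5 had 209 ± 21.2 CPM in liraglutide+PYY3-36 livers (n = 6) and 182 ± 62.1 CPM in saline livers (SD, n = 3), with a log2 fold change of 0.19 (adjusted p = 0.929). In batch B it had 243, 662, 261, 327 and 269.9 CPM in liraglutide+PYY3-36 livers and 98.2, 99.0, 152, 153 and 69.4 CPM in saline livers, with 1.64 (adjusted p = 0.362). The batch B groups did not overlap, which held with this direction for 0.989% of all genes tested. Batch A is also the batch whose numbers match the rats with the longer feeding period, and from the labels feeding period and batch cannot be told apart in these groups. The 6 libraries had medians of 4367 CPM for Acsl1, 17.6 CPM for Acsl3, 292 CPM for Acsl4 and 272 CPM for Acsl5, against 1736, 4.89, 125 and 142 CPM in the other 22 batch B libraries. Medians were also higher for Acsm3 (93.9 and 34.1 CPM), Aacs (1.28 and 0.745 CPM) and slightly Acsm2a (10.2 and 9.23 CPM), and lower for Acsm5 (94.8 and 137 CPM). No RYGB or saline liver is among the 6, and most of them received liraglutide, so these medians compare different mixes of groups. The Acsf2 medians were close, with 5.55 CPM in the 6 libraries and 5.48 CPM in the other 22, which include the batch B RYGB livers. Single libraries differed more, since Acsf2 ran between 4.35 and 15.5 CPM in the 6, the highest being sham replicate 12. Without the 6, the fitted Acsf2 difference between RYGB and sham was larger than with all libraries. The Acsf3 medians were also close, with 14.2 and 13.01 CPM.

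In liraglutide livers against saline none of the 9 members was called by edgeR, DESeq2 or limma-voom, with 0.006% of all genes tested called by edgeR, and 1 of 9 had an unadjusted p under 0.05, against 6.22% of all genes tested. This was again Acsl5, with 179, 127, 229, 589 and 309 CPM in liraglutide livers and a log2 fold change of 1.12 (SE 0.30, unadjusted p = 0.000478, adjusted p = 0.419). Without liraglutide replicate 2 it was called (1.30, adjusted p = 0.0376), and without the 6 libraries apart the value was 0.77 (adjusted p = 1). In PYY3-36 livers the 5 values of Acsl5 were 173, 152, 107, 110 and 193 CPM, with a log2 fold change of 0.16 against saline (95% interval -0.46 to 0.77). None of the 9 members was called there, nor had any an unadjusted p under 0.05 (4.95% of all genes tested), and none of all genes tested was called, while DESeq2 and limma-voom also called none of the 9. The comparisons with saline share the 8 saline livers, as those with sham share the 12 sham livers.

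Liraglutide against PYY3-36 had 0 calls among the 10 members in edgeR, DESeq2 and limma-voom, with 0.006% of all genes tested called. Acsl5 alone of the 10 had an unadjusted p under 0.05, against 6.16% of all genes tested, with a log2 fold change of 0.96 (SE 0.33, adjusted p = 0.617). Sham against saline, the 2 sets of control livers, had 0 calls among the 9 members in all 3 tools and 0 at an unadjusted p under 0.05 (2.58% of all genes tested), and 0 of all genes tested were called in edgeR.

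**Figure D4:**
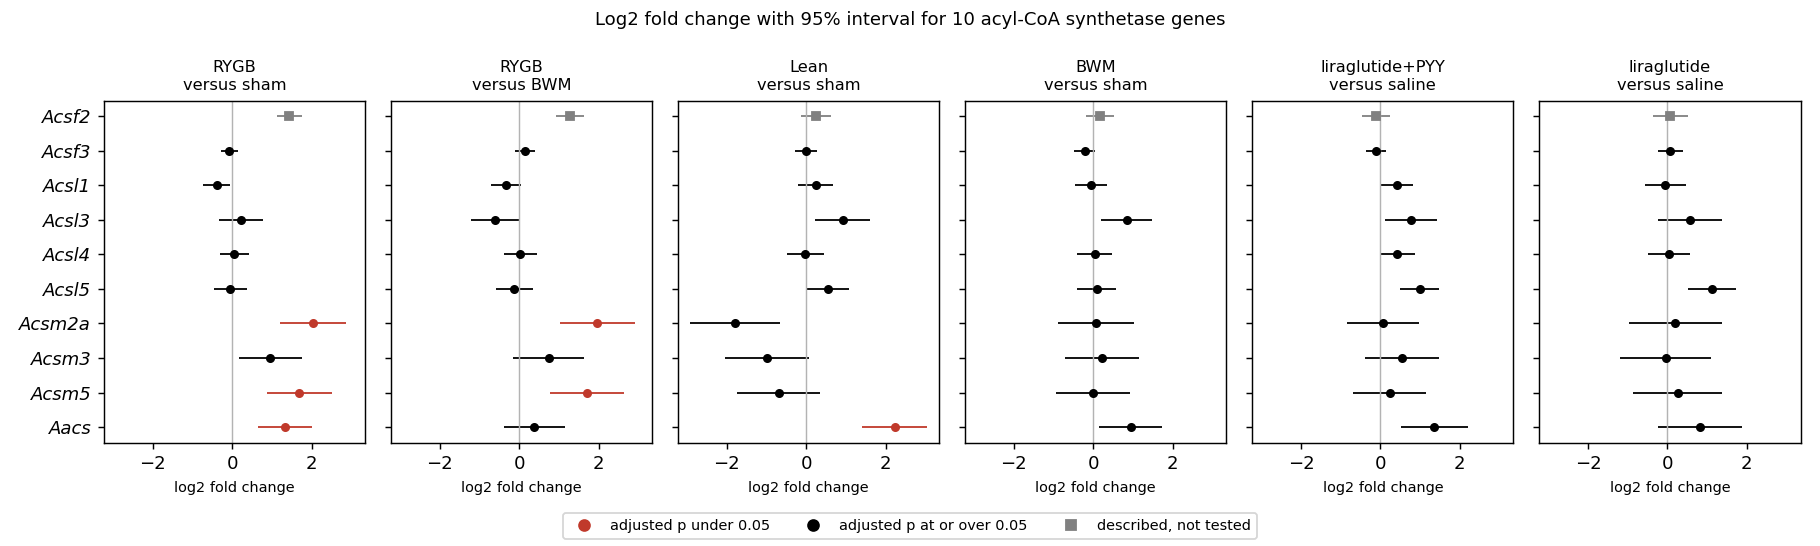
Log2 fold changes (x axes) with 95% intervals for the 10 genes (rows) in 6 comparisons (panels). Calls, in red, are Acsm2a, Acsm5 and Aacs in RYGB against sham, Acsm2a and Acsm5 in RYGB against BWM and Aacs in Lean against sham. Acsf2, in grey, is described and not tested here, and its intervals do not allow for how it was chosen.

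The difference between the effect of RYGB against sham and that of liraglutide+PYY3-36 against saline was fitted as a contrast of the same model. None of the 9 members was called, with 0.036% of all genes tested called, and 4 of 9 had an unadjusted p under 0.05, against 12.3% of all genes tested. The effect of RYGB was higher by 1.98 on the log2 scale for Acsm2a (SE 0.61, adjusted p = 0.273) and by 1.47 for Acsm5 (SE 0.59, adjusted p = 0.377). The difference was -1.03 for Acsl5 (SE 0.32, adjusted p = 0.279) and -0.80 for Acsl1 (SE 0.26, adjusted p = 0.285). DESeq2 called none, and limma-voom called Acsm2a (2.29, adjusted p = 0.0436).

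The members were also compared in pairs within groups. After group and batch means had been subtracted, 12 of the 45 pairs of members had a positive correlation over the 69 libraries with an adjusted permutation p under 0.05 and 0 had a negative one (100000 resamples, two-sided, adjusted over 45 pairs). The shuffles ran over all 69 libraries without regard to group or batch, so unequal spread between these can affect the p-values. The highest was between Acsl1 and Acsl4 (r = 0.68, p = 1e-05, adjusted p = 0.000112, rho = 0.62, p = 1e-05, adjusted p = 0.00015), where 1e-05 is the smallest p that these resamples can give. It was 0.73 without the 2 libraries farthest from the median of Acsl1, 0.64 without the 6 libraries apart, 0.48 within batch A (n = 41) and 0.78 within batch B (n = 28). Without the 6 libraries, r fell from 0.49 to 0.25 for Acsl3 and Acsl4 (0.11 within batch A). It fell from 0.48 to 0.32 for Acsl1 and Acsl5 and from 0.38 to 0.21 for Acsl4 and Acsl5. It changed little for Acsf3 and Acsl5 (0.48 and 0.47) and for Acsl5 and Aacs (0.35 and 0.40). How often pairs of other genes pass was not tested. For Acsm2a and Acsm5, r was 0.56 (p = 1e-05, adjusted p = 0.000112) and rho 0.52 (p = 2e-05, adjusted p = 0.000225), with 0.50 without the 2 farthest libraries, 0.61 within batch A and 0.50 within batch B. Both genes hold divided reads, and the part of these in the correlation was not tested. For Acsm3, of the same cluster, neither pair passed, with r = -0.13 with Acsm2a (permutation p = 0.275, adjusted p = 0.458, rho = -0.12) and -0.16 with Acsm5 (permutation p = 0.197, adjusted p = 0.370, rho = -0.17). None of the 9 pairs with Acsf2 passed, the highest being Aacs (r = 0.27, permutation p = 0.029, adjusted p = 0.101, rho = 0.24).

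Of 16 further symbols of acyl-CoA synthetases looked up, 11 were tested, and 1 rose in RYGB against sham, where 1.54% of all genes tested were called higher. This was Acss2, the cytosolic acetyl-CoA synthetase, with 18.9 to 147 CPM in RYGB livers (median 33.0, n = 14) and 14.2 to 34.0 CPM in sham livers (median 23.9, n = 12) and a log2 fold change of 0.77 (SE 0.20, adjusted p = 0.0154). Acss2 also rose in Lean against sham (1.18, adjusted p = 0.00511). Slc27a5, the bile acid and very long-chain synthetase of hepatocytes, rose in RYGB against Lean (1.003, SE 0.25, adjusted p = 0.00693). The median log2 fold change of the 11 genes in RYGB against sham was 0.13, beside -0.0050 over all genes tested. Acsl6, Acsm4, Acsbg2 and Slc27a6 had too few counts to be tested.

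Genes that act before or after the synthetases were counted by list in RYGB against sham. Of all genes tested, 3.12% were called in this comparison and 12.7% had an unadjusted p under 0.05. None of the 11 tested acyl-CoA thioesterases, which undo the reaction, was called, nor any of the 12 genes of mitochondrial beta-oxidation or of the 8 of malonyl-CoA metabolism (at an unadjusted p under 0.05 there were 3, 3 and 1). In the carnitine shuttle 2 of 7 rose, namely Crat, carnitine acetyltransferase (1.15, adjusted p = 0.0194), and Slc22a5, the carnitine transporter (0.68, adjusted p = 0.0114). Among 3 tested genes of glycine conjugation, Glyatl2 rose (0.53, adjusted p = 0.0271). Of 9 genes of ketone body metabolism 2 rose and 1 fell. Those that rose were Hmgcs1 (1.15, adjusted p = 0.00684) and Acat2 (1.001, adjusted p = 0.0208), both of which act in cytosolic sterol synthesis, and the one that fell was Bdh1, the mitochondrial hydroxybutyrate dehydrogenase (-0.42, adjusted p = 0.0113). Acbd6, an acyl-CoA binding protein, rose by 0.40 (adjusted p = 0.0435). Of 12 tested genes of glycerolipid synthesis 2 rose, the phosphatidate phosphatases Lpin2 (1.11, adjusted p = 0.000148) and Lpin1 (1.27, adjusted p = 0.00493).

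In the other comparisons these lists held few calls. Of all genes tested, 0.612% were called in Lean against sham, 1.27% in RYGB against BWM and 3.88% in RYGB against Lean. Acacb, which makes the malonyl-CoA that restrains carnitine palmitoyltransferase, rose in Lean against sham (1.76, adjusted p = 0.0194) and fell in RYGB against Lean (-1.30, adjusted p = 0.0455). Slc22a5 (0.72, adjusted p = 0.0421) and Eci1, an enoyl-CoA isomerase of beta-oxidation (0.94, adjusted p = 0.0287), rose in RYGB against BWM. In RYGB against Lean, Crat (1.57, adjusted p = 0.0120), Glyatl2 (0.99, adjusted p = 0.000362) and Gpat3 (1.98, adjusted p = 0.00785) rose, and Bdh1 (-0.46, adjusted p = 0.0239) and Dbi (-1.16, adjusted p = 0.0351) fell.

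Markers of other cell types and of hepatocytes were read beside these results. Of all genes tested, 3.12% were called in RYGB against sham and 3.88% in RYGB against Lean. Of 8 tested Kupffer cell and macrophage markers, all had positive log2 fold changes in RYGB against sham (median 0.52) and 1, Vsig4, rose (0.61, adjusted p = 0.0486). Their summed level was 150 to 526.0 CPM in RYGB livers and 125 to 352 CPM in sham livers. Of 6 exocrine pancreas markers only Cela1 could be tested, and it rose (0.90, adjusted p = 0.0187). Cela1 had 11.8 to 96.6 CPM in RYGB livers and 7.58 to 71.3 CPM in sham livers and made up nearly the whole summed level of that list, while the other pancreas markers were at or near 0. None of the 8 hepatocyte markers was called in RYGB against sham, and 2 of 8 had positive values. In RYGB against Lean, only Ttr of the 8 hepatocyte markers was called, and it fell (-0.84). Of the 8 Kupffer cell and macrophage markers only Cd5l was called, and it rose (0.81). Of 6 bile duct markers, Epcam fell (-0.69) and Krt7 rose (adjusted p = 0.0375), so the calls in that list were opposed. Krt7 was scarce, with means of 1.23 CPM in RYGB livers and 0.198 CPM in Lean livers. These single genes do not stand for their cell types. The part of these differences in the levels of the synthetases was not tested.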

How the data were processed

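RNA of 69 liver samples of male Wistar rats was sequenced from poly(A)-selected, stranded, single-end libraries. According to the study's methods and the submitters' processing notes, reads were demultiplexed with bcl2fastq 2.20.0.422, trimmed with cutadapt 2.5, aligned to Rnor_6.0 with STAR 2.7.2b and assigned to genes with featureCounts 1.6.4 by strand, dividing reads that match several places or genes. The deposited table therefore holds estimated counts, of which 15.9% are not whole numbers, made by the authors without normalization, and an exon length in bases per gene. Total counts were 9110860 to 27559144 per library. The counts were rounded and fitted in edgeR 4.0.16 (R 4.3.3; TMM, robust quasi-likelihood, group and batch, 16676 genes after filterByExpr), with adjustment over all genes tested. Groups came from the labels, which list separate samples without naming the animals, so p-values measure the spread between these samples. Alternatives were DESeq2 1.42.0, limma-voom (limma 3.58.1), other size factors, no filter, unrounded counts, 55 libraries of 6 groups, no batch term, each batch alone, 6 libraries left out, a replicate term and each library left out. The limma-voom fit used sample quality weights, so it differs from the edgeR fit also in how much each library counts. The model was tested on simulated data. Of 303 pairs of libraries within groups, none agreed within sampling noise (lowest mean chi-square 26.3 per gene). All 10 members are named, as are the genes of the other lists called in a comparison (up to 4 a list) and the 5 most like and 3 most opposite to Acsf2 by Pearson r. Members, lists and the 6 libraries were chosen with earlier results of these data known. The result of one marker gene is not reported here.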

Additional observations from a re-analysis of the deposited data

Results flagged for a closer look

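In 50 groups of 4 to 10 livers, 3 single values of the 10 genes stood apart by Dixon's criterion, which chance alone gives in about 5% of groups. Acsf2 had 6.795 CPM in PYY3-36 replicate 3, above 4.77 to 5.06 CPM in the other 4 livers of that group. Acsl1 had 4212.08 CPM in PYY3-36 replicate 5, one of the 6 libraries apart, above 1679 to 2035 CPM in the other 4. Acsm3 had 5.43333 CPM in BWM replicate 1, below 52.1 to 148 CPM in the other 7.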

How the results depend on the processing

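Of 1260 alternative values of 117 results, 1183 were labelled alike and 0 called values changed sign. For a tested fold change, alike meant the same direction and the same side of the threshold. For a level or an untested Acsf2 value it meant a shift smaller than the SD. For a count of calls it allowed a small change, so that 2 or 4 members against 3 passed as alike. Members called in RYGB against sham (3 of 9) numbered 0 in batch B alone, with 3 and 5 livers, 2 with the replicate block, 4 with limma-voom and 4 without the 6 libraries apart. They numbered 3 in batch A alone, where Acsl1 was called and Aacs was not. The count was 2 with DESeq2 for Lean against sham (1 otherwise), 1 without a filter, 1 with the replicate block and 3 with limma-voom for RYGB against BWM (2 otherwise), and 6 with limma-voom, 5 in batch A alone, 4 without the 6 libraries apart, 4 with the replicate block and 2 without a batch term for RYGB against Lean (3 otherwise). It was 1 with DESeq2, 1 with limma-voom and 1 in batch A alone for BWM against Lean, and 1 with limma-voom for the difference of effects (0 otherwise). Of the other lists in RYGB against sham (10 calls), limma-voom called 22, batch A alone 5, batch B alone 0 and the fit without the 6 libraries apart 16. The cause was not tested. Leaving out each library in turn gave 2 to 3 members in RYGB against sham, 1 to 2 against BWM, 2 to 4 against Lean, 0 to 1 in liraglutide against saline, and 6 to 11 genes of the other lists. Aacs in RYGB against sham was also lost with limma-voom (0.75, adjusted p = 0.0803), and over all genes the count in that comparison (520) ran between 24 and 1585. Aacs, at 2 counts in its lowest library, is limited by depth.

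Replicate numbers did not pair RYGB and sham livers, since over 12 numbers the correlation of deviations was -0.38 to 0.19, and 3 livers correlated best with their own number. With the replicate block 1 member was called in RYGB against BWM and 4 genes of the other lists in RYGB against sham, Aacs was not called there (0.92, adjusted p = 0.191), and the Acsf2 difference was 1.28.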
